A study of Mus musculus with 8 samples.

Results

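The genes described here are 41 mouse genes of the acrosome, the perinuclear theca and sperm-egg fusion, chosen by symbol for their known roles, without the ADAM and Prss protease families. This choice, and that of the further lists below, was made with earlier results of these data known. Of the 24988 genes in the deposited table, 40 carried one of these symbols. Actl7b was matched to no row and was not analysed here. RNA of adult mouse testis was sequenced in 8 libraries, 4 labelled Kpna2-/- (knockout) and 4 labelled wild type. Kpna2 is one of the importin alpha genes, whose products hand nuclear proteins to the import machinery, and the comparison asked which testis transcripts differ when it is lost. The labels give neither strain, exact age, treatment or method of deletion nor the number of animals behind a group, so that the p-values reflect the spread among libraries alone, which may be technical.

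The acrosome is a large vesicle that forms from the Golgi apparatus of the round spermatid and spreads over the front of the nucleus. It holds enzymes and zona-binding proteins that are released before the sperm reaches the egg surface. The perinuclear theca is the rigid protein shell between acrosome and nucleus, and a separate set of membrane proteins, led by Izumo1, binds and fuses with the egg. Most of these genes are active in spermatids. In RNA of whole testis, fewer cells of a type and less RNA per cell cannot be told apart.

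Between 31133443 and 37797812 reads per library were assigned to genes. Levels are the values deposited as CPM, which are read counts divided by a factor for each library that the sources used here do not give, as mean ± SD with n = 4 per group. Kpna2 itself was not lower under the knockout label, at 12.4 to 15.1 CPM in the wild-type libraries and 15.3 to 21.7 CPM in those labelled knockout (log2 fold change 0.44, SE 0.10, limma adjusted p = 0.0079). This goes against the label, so each direction below refers to the label and not to a shown loss of Kpna2. Which exons the reads came from cannot be read from gene-level values. Germ cell markers were present in all libraries. The summed level of 10 spermatid markers ranged from 23981 to 25271 CPM in wild type and from 21103 to 27479 CPM in the libraries labelled knockout, and that of 10 pachytene spermatocyte markers 6197 to 6259 and 5984 to 6423 CPM. Of the 10 spermatid markers, limma called none, with 3 at an unadjusted p under 0.05, while edgeR and DESeq2 called 0 each. Over all 22027 tested genes, 6653 had an unadjusted limma p under 0.05, a share close to that of these markers. Of the 10 pachytene markers limma called 1, Sycp1 (log2 fold change -0.30, adjusted p = 0.037), and of 8 spermatogonia markers 2, Uchl1 and Dmrt1, all lower under the knockout label. Among 7 Leydig cell markers, 4 were lower and 1 higher. Of 6 peritubular myoid markers, 4 were lower, of 10 Sertoli cell markers 2 were lower, and of 6 macrophage markers none was called, where 16.9% of all tested genes were called. Of 8 epididymal epithelium markers 2 had a row, with summed levels of 1.93 to 2.36 and 4.68 to 6.58 CPM, and 1 was tested and called higher. The part of these shifts in the results below was not tested.

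Promoter sequences were found for 32 of the 40 genes, in 40 windows of 250 bases before the RefSeq start sites of build GRCm38.p6. Acr, Capza3, Cylc2, Eqtn, Izumo4, Pcsk4, Plcz1 and Smap2 had no entry. The windows were searched on both strands for the cAMP response element TGACGTCA, which the spermatid transcription factor CREM is known to bind, and for its core TGACG, which TGACGTCA contains. TGACGTCA was found in 1 window, that of Izumo1 (1.55% of all 32851 windows hold it), and TGACG in 13 windows of 9 genes, 32.5% of the 40 windows against 17.8% of all windows. Once the Cylc1 window had been read, the relaxed form TGANGTCA was added to the search, and it occurred in 11 windows of 10 genes (27.5%, against 7.49% of all windows). Its version TGATGTCA occurred in 7 windows of 7 genes (17.5%, against 2.93%). The Cylc1 window that prompted this search is itself counted in both, so these shares are no test of an excess. The TGACG share is no such test either, because the 40 windows came from 32 genes and were counted singly. These letters are a description of the windows, and no binding was measured. The stretches around the TGATGTCA matches and the TGACGTCA of Izumo1 are printed to let the shared letters be compared. The 8 matching bases are in capitals, and each stretch is in the direction of its gene.
Cylc1 (chrX:111110374-111110405, + strand): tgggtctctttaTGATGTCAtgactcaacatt
Actl7a (chr4:56743370-56743401, + strand): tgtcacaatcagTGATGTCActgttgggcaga
Actl9 (chr17:33432827-33432858, + strand): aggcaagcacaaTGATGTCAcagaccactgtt
Spaca7 (chr8:12572990-12573021, + strand): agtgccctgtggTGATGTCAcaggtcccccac
Lyzl6 (chr11:103638907-103638938, - strand): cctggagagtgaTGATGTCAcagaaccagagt
Spam1 (chr6:24791130-24791161, + strand): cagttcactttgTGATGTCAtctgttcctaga
Hyal5 (chr6:24857900-24857931, + strand): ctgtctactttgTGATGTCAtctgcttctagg
Izumo1 (chr7:45621703-45621734, + strand): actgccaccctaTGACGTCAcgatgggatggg

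In the 7 genes with TGATGTCA the match began 32 (Cylc1), 34 (Spaca7), 36 (Lyzl6), 40 (Actl7a), 46 (Spam1), 60 (Actl9) and 85 (Hyal5) bases before the start site, and that of Izumo1 96 bases before it. Spam1 and Hyal5 are neighbouring hyaluronidase genes, and their printed stretches share 26 of 32 bases. The other genes with TGANGTCA were Izumo2 and Spaca3, with TGAGGTCA. Hyal5 held a further match, TGAGGTCA, 36 bases before its start site. Actl9 held TGACCTCA, which reads TGAGGTCA on the other strand, 104 bases before its own. The stretches around these further matches are not printed. Among the 10 genes with a TGANGTCA match the log2 fold changes ran from -0.16 to 0.48 with a median of 0.03. Among the 22 genes with a window and no match they ran from -0.15 to 0.15 with a median of 0.02. Cylc1, whose window prompted the search, is among the 10 and holds the 0.48, and the next highest there was Hyal5 at 0.12. These ranges are therefore no test of a link between match and change.

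The levels spanned a wide range, compared here per kilobase of annotated exon because longer genes gather more reads. Crisp2, a secretory protein of acrosome and tail, stood highest at 624 ± 26.7 CPM per kb in the wild-type libraries, followed by Dkkl1, an acrosomal protein, at 505 ± 10.9 and Ccdc136, needed for acrosome formation, at 431 ± 12.5. The actin-related theca genes Actl9 and Actl7a came next, at 305 ± 2.88 and 247 ± 13.4 CPM per kb. At the low end lay the Golgi traffic genes Gopc (2.88 ± 0.0596) and Pick1 (5.70 ± 0.251) and the fusion gene Spaca6 (6.52 ± 0.321 CPM per kb). The length is that of all annotated exons merged (10958, 6573 and 7067 bases in these genes), which may exceed that of the testis transcript. By CPM alone Tmem95 was the lowest, at 18.9 CPM in the wild-type libraries. The neighbours in this order Zpbp2 (171 ± 10.4) and Spaca4 (170 ± 11.2) differed by less than their SD, as did Acr (111 ± 2.59), Lyzl6 (110 ± 5.01) and Plcz1 (108 ± 6.30 CPM per kb). The plot of levels per length shows that genes of 1 role need not share a level.

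**Figure D1:**
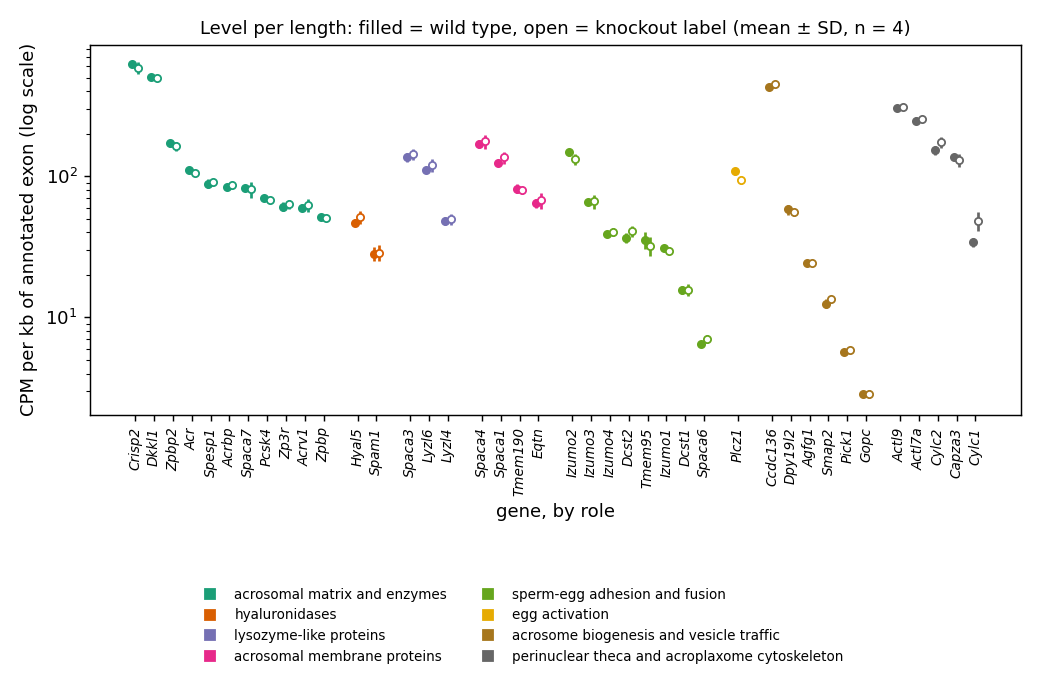
Levels of the 40 genes as CPM per kb of annotated exon on a log axis, grouped by role, as mean ± SD of 4 libraries per group (filled, wild type; open, knockout label). Crisp2, Dkkl1 and Ccdc136 lie highest, at 624, 505 and 431 CPM per kb, Gopc, Pick1 and Spaca6 lie lowest, and filled and open points lie side by side for most genes.

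All 40 genes passed the filter on low values, and limma, fitted over all 22027 tested genes, called 2 of them: Cylc1 was higher and Plcz1 lower in the libraries labelled knockout. That is 5.0% of the 40, against 16.9% of all tested genes (8.62% higher and 8.32% lower). Of 8130 tested genes with a wild-type mean in the range spanned by the 40, 16% were called. By edgeR's quasi-likelihood test the same 2 of the 40 genes were called (background 16.7%), and by DESeq2 3, Cylc1, Plcz1 and Cylc2 (background 18.0%). At an unadjusted p under 0.05 limma gave 6 of the 40 genes: these 3, Spaca1, Izumo2 and Dcst2. At that cut it gave 6653 of all 22027 tested genes, a larger share. The values of the groups did not overlap for 1 of the 40 genes (2.5%), against 20.9% of all tested genes. That count was 3, 2 and 2 when wild-type replicate 1, 3 or 4 was left out, and 4, 3 and 2 when knockout replicate 1, 2 or 3 was left out. With fewer libraries such a gap is easier to reach for any gene. The share over all tested genes was not counted there, so these counts have no background. The median log2 fold change was 0.032 over the 40 genes and -0.010 over all tested genes, and the median of its size was 0.059 against 0.13. The 40 genes were more abundant than most, with a median wild-type level of 125 CPM against 9.18 CPM, and their median SE was 0.064 against 0.10.

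**Figure D2:**
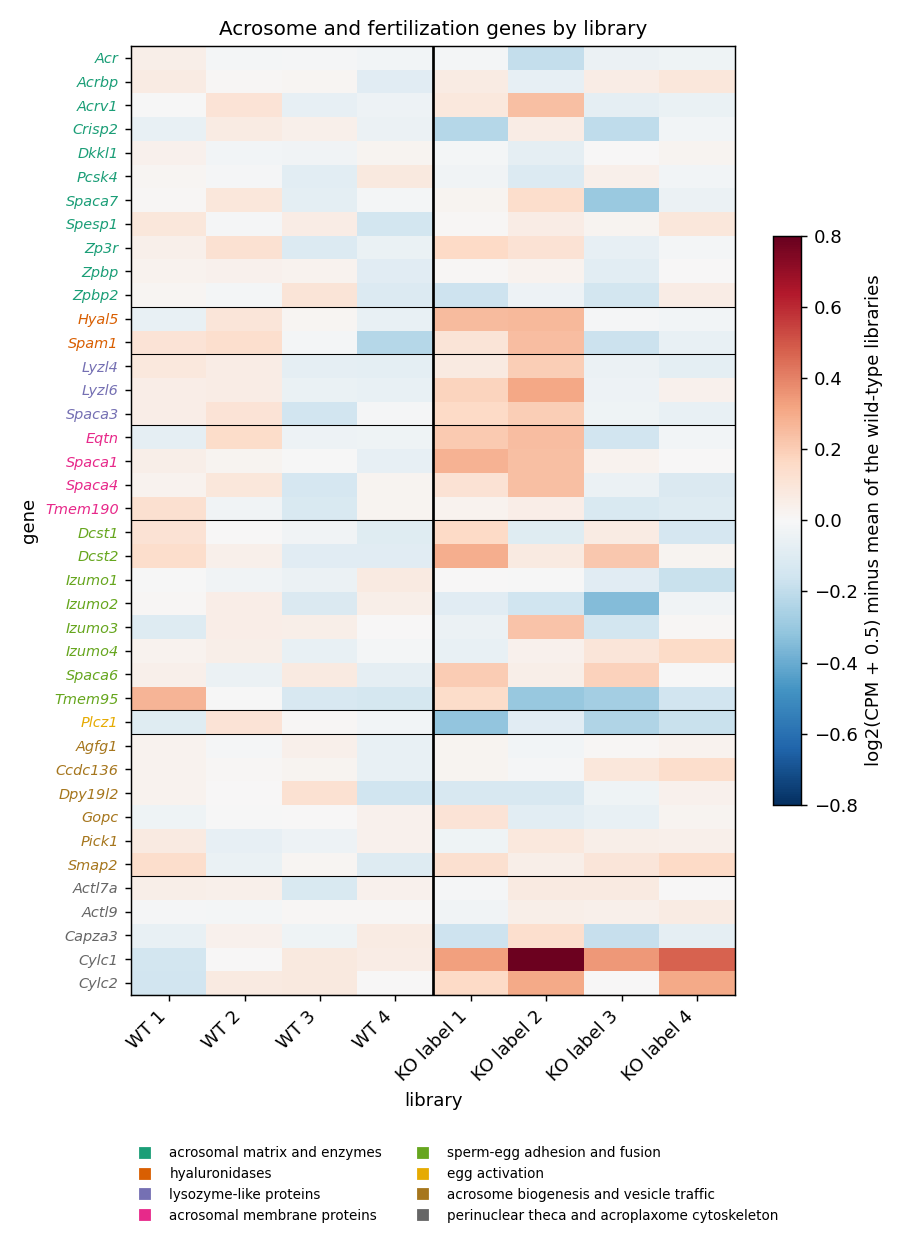
Each row is a gene, coloured by role, and each column a library; colour gives log2(CPM + 0.5) minus the mean of the 4 wild-type libraries. The Cylc1 row is raised in all 4 libraries labelled knockout, most in replicate 2, and most other rows stay pale.

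The limma 95% intervals are not adjusted for the number of genes. They reflect the spread among these libraries alone, and so do not bound a difference between animals. For 38 of the 38 genes that were not called, the interval lay within 1.5-fold either way, for 37 within 1.3-fold and for 31 within 1.2-fold. The exception at 1.3-fold was Tmem95, among the 40 the gene with the fewest reads (477 to 764 per library), whose SD was 14.1% and 15.4% of its mean in the 2 groups. The summed level of the 40 genes lay between 9740 and 10207 CPM in wild type and between 9767 and 10338 CPM in the libraries labelled knockout, so the groups overlapped.

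**Figure D3:**
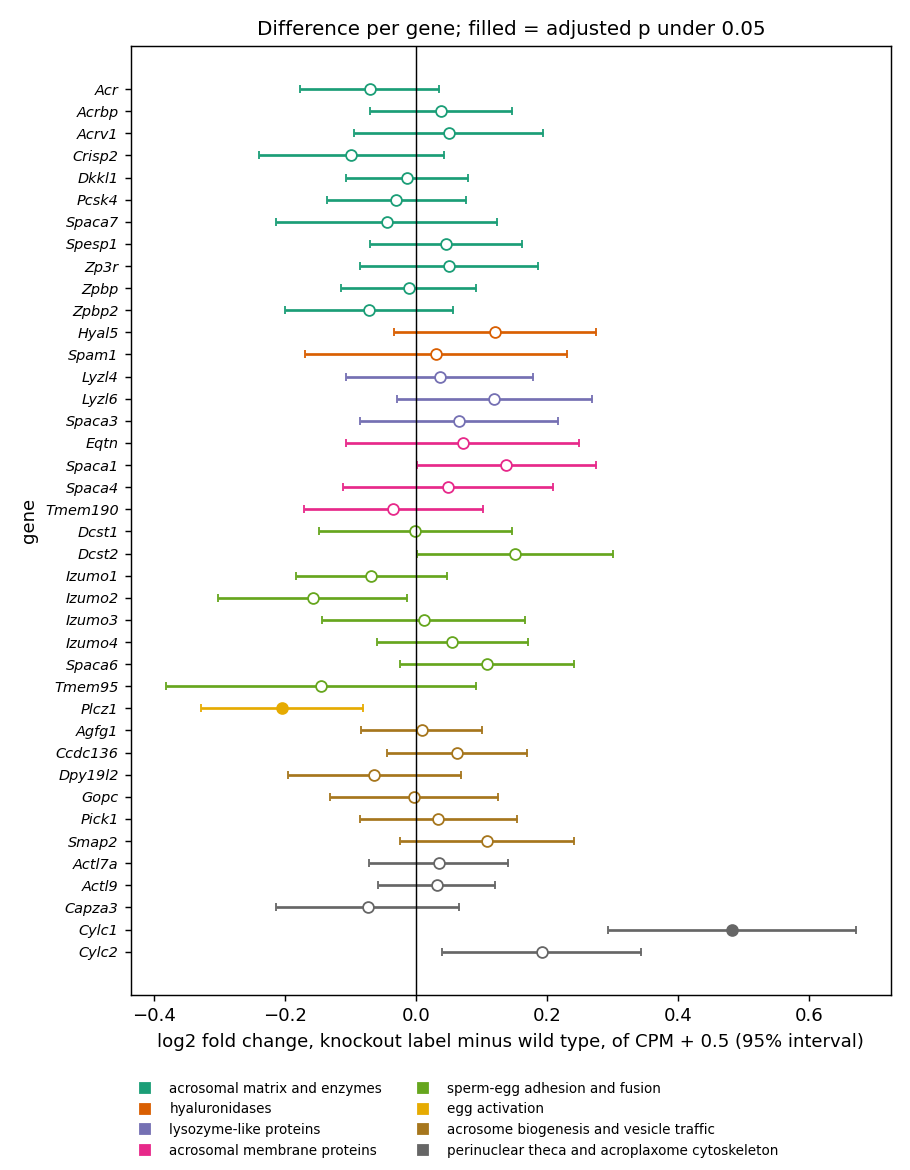
Log2 fold change of each gene (knockout label minus wild type, of CPM + 0.5) with its limma 95% interval, coloured by role; filled points passed an adjusted p of 0.05. Cylc1 at 0.48 and Plcz1 at -0.20 are the filled points, and the interval of Tmem95 is among the widest.

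The largest difference was in the theca. Cylc1 (ENSMUSG00000073001; chromosome X, 111110418 to 111125854 in GRCm38) encodes cylicin 1, a basic protein of the calyx, the rear part of the theca. It stood at 61.5, 68.2, 71.9 and 70.8 CPM in wild-type replicates 1 to 4 and at 85.6, 117, 86.5 and 94.4 CPM in the replicates labelled knockout. All 4 libraries labelled knockout lay above all 4 wild-type libraries, with replicate 2 the highest. The mean rose 1.41-fold, from 68.1 ± 4.68 to 96.0 ± 14.8 CPM (log2 fold change 0.48, SE 0.09, limma adjusted p = 0.0018). It was called by edgeR and DESeq2 too (adjusted p = 0.0019 and 2.0e-06). The 250 bases before its RefSeq start site, chrX:111110168-111110417 on the + strand in GRCm38.p6, are given with the TGATGTCA match in capitals.
Cylc1 promoter: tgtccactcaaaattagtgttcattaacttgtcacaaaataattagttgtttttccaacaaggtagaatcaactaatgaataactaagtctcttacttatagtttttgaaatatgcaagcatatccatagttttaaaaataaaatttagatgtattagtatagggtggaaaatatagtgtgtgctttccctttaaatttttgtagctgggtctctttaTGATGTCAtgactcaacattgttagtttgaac

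Cylc2, the second cylicin, stood at 264, 309, 310 and 294 CPM in the wild-type libraries and at 327, 362, 295 and 363 CPM in those labelled knockout. Replicate 3 lay inside the wild-type range and the other replicates labelled knockout above it. The means were 294 ± 21.2 and 337 ± 32.4 CPM (log2 fold change 0.19, SE 0.07, 95% interval 0.04 to 0.34), and limma did not call it (adjusted p = 0.080). DESeq2 called it (adjusted p = 0.044), as did limma without knockout replicate 3 (adjusted p = 0.018). Over the alternatives its adjusted p ran from 0.018 to 0.23. Actl7a, an actin-like protein that anchors the acrosome to the nucleus, stood at 374 ± 20.3 and 383 ± 12.2 CPM, and Actl9, its partner in the theca, at 418 ± 3.96 and 427 ± 11.6 CPM for wild type and the knockout label. Capza3, the actin-capping subunit of spermatids, stood at 199, 213, 203 and 217 CPM in the wild-type libraries and at 185, 228, 183 and 197 CPM in those labelled knockout (log2 fold change -0.07, SE 0.07, limma adjusted p = 0.49). Replicate 2 labelled knockout lay above its wild-type range and the other 3 below it.

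A further list of 9 theca and acroplaxome genes held 1 call. Actrt1, an actin-related theca protein that is also encoded on chromosome X, rose from 20.3 ± 0.504 to 29.3 ± 5.09 CPM, 1.44-fold (log2 fold change 0.50, SE 0.09, limma adjusted p = 0.0023). Its values were 19.6, 20.7, 20.7 and 20.4 CPM in wild-type replicates 1 to 4 and 25.4, 36.8, 27.9 and 27.3 CPM in the replicates labelled knockout. Replicate 2 was again the highest of its group, as for Cylc1, and the groups did not overlap. Of 857 tested genes of chromosome X, a set looked at once the values of Cylc1 and Actrt1 had been seen, 115 were called higher (13.4%) and 34 lower (3.97%), against 8.62% higher and 8.32% lower over all tested genes, and their median change was 0.04 on the log2 scale against -0.010. The part of the chromosome in these values was not tested.

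**Figure D4:**
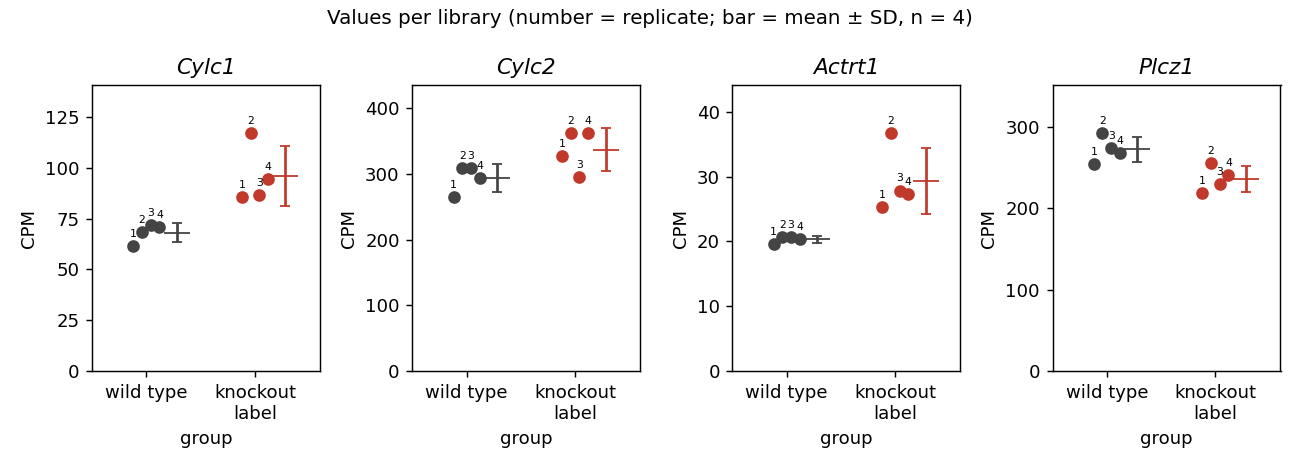
CPM per library for Cylc1, Cylc2, Actrt1 and Plcz1, each point 1 library numbered by replicate, with mean ± SD (n = 4) beside each group. The groups of Cylc1 and Actrt1 stand apart with replicate 2 highest under the knockout label, while those of Cylc2 and Plcz1 overlap.

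Plcz1 (ENSMUSG00000030230; chromosome 6, 139989673 to 140041457 in GRCm38) encodes the sperm phospholipase that starts calcium oscillations in the egg. It stood at 254, 293, 273 and 268 CPM in the wild-type libraries and at 218, 255, 230 and 240 CPM in those labelled knockout. Knockout replicate 2 reached the lowest wild-type library, and the other 3 lay below the wild-type range. The mean fell 1.15-fold, from 272 ± 15.8 to 236 ± 15.7 CPM (log2 fold change -0.20, SE 0.06, limma adjusted p = 0.025). Leaving out wild-type replicate 2 or 3 (limma adjusted p = 0.092 and 0.057), knockout replicate 1 or 3 (0.062 and 0.060) or the variance trend (0.093) ended the call. Exons of Plcz1 and Capza3 overlap by 107 bases on opposite strands in the annotation, and the sources used here do not give whether counting used the strand.

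Of the 8 genes of sperm-egg adhesion and fusion limma, edgeR and DESeq2 called 0, and the unadjusted limma p was under 0.05 for 2, Izumo2 and Dcst2. Izumo1, the sperm ligand of the egg receptor Juno, ranged from 90.04 to 97.9 CPM in the wild-type libraries and from 82.0 to 93.0 CPM in those labelled knockout. The groups overlapped, and part of the Izumo1 exons is shared with Rasip1 on the same strand. Izumo2, a relative of Izumo1, stood at 108, 111, 98.7 and 111 CPM and at 100.2, 95.4, 83.7 and 104 CPM (log2 fold change -0.16, SE 0.07, limma adjusted p = 0.13). Only replicates 2 and 3 labelled knockout lay below its wild-type range. Dcst2, a membrane protein needed for fusion, stood at 92.4, 86.3, 78.7 and 78.5 CPM and at 103, 88.2, 97.4 and 85.2 CPM (log2 fold change 0.15, SE 0.07, limma adjusted p = 0.16). Its partner Dcst1 had means of 82.0 ± 5.08 and 82.1 ± 7.84 CPM. Spaca6 and Tmem95, both needed for fusion, stood at 46.1 ± 2.27 and 49.7 ± 3.47 CPM and at 18.9 ± 2.66 and 17.0 ± 2.62 CPM.

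The 11 genes of the acrosomal matrix and its enzymes held no call by limma, edgeR or DESeq2 and no unadjusted p under 0.05, and their limma adjusted p ran from 0.35 to 0.91. Acr, the protease acrosin, stood at 180, 172, 172 and 171 CPM in the wild-type libraries and at 172, 152, 168 and 170 CPM in those labelled knockout (log2 fold change -0.07, 95% interval -0.18 to 0.04, limma adjusted p = 0.37). Its values were lowest in knockout replicate 2. Acrbp, which holds proacrosin in its inactive form, stood at 276 ± 12.4 and 283 ± 13.4 CPM. Its exons overlap those of 2 other annotated genes. Crisp2 stood at 1687, 1840, 1805 and 1703 CPM and at 1498, 1834, 1523 and 1734 CPM (log2 fold change -0.10, SE 0.07, limma adjusted p = 0.35), with knockout replicates 1 and 3 below the wild-type range. The zona-binding genes Zpbp (217 ± 9.21 and 216 ± 7.59 CPM), Zpbp2 (288 ± 17.5 and 274 ± 20.2) and Zp3r (129 ± 9.12 and 134 ± 9.95) had intervals within 1.3-fold either way. So did Acrv1, Dkkl1, Spesp1 of the equatorial segment, Spaca7 and the convertase gene Pcsk4.

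Of 2 hyaluronidase, 3 lysozyme-like and 4 acrosomal membrane protein genes limma called none, and Spaca1 alone had an unadjusted p under 0.05. Spaca1, an inner acrosomal membrane protein needed for acrosome shape, stood at 204, 200.3, 196 and 188 CPM in the wild-type libraries and at 239, 233, 201 and 197 CPM in those labelled knockout (log2 fold change 0.14, SE 0.06, limma adjusted p = 0.16). Replicates 1 and 2 labelled knockout lay above the wild-type range, and replicates 3 and 4 inside it. Hyal5, a hyaluronidase that digests the matrix around the egg, stood at 97.4, 109, 103 and 97.5 CPM and at 121, 122, 101 and 99.8 CPM (log2 fold change 0.12, SE 0.07, limma adjusted p = 0.28). Lyzl6, of the lysozyme family, stood at 114, 114, 105 and 105 CPM and at 124, 136, 106 and 112 CPM (log2 fold change 0.12, SE 0.07, limma adjusted p = 0.27). In both genes replicates 1 and 2 labelled knockout lay above the wild-type range. Spam1, the other hyaluronidase, stood at 67.0, 68.4, 61.6 and 53.0 CPM and at 66.8, 73.9, 55.2 and 59.8 CPM (log2 fold change 0.03, SE 0.09, limma adjusted p = 0.87). Spaca3, of the lysozyme family, stood at 134, 139.7, 116 and 128 CPM and at 144, 148, 126 and 124 CPM (log2 fold change 0.07, SE 0.07, limma adjusted p = 0.58). Equatorin (Eqtn), an acrosomal membrane protein, stood at 78.6, 91.5, 80.05 and 80.5 CPM and at 95.6, 97.9, 74.1 and 81.4 CPM (log2 fold change 0.07, SE 0.08, limma adjusted p = 0.62). The groups of all 3 genes overlapped, with knockout replicate 2 the highest of its group in each.

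Knockout replicates 1 and 2 were the highest values of their group in 14 of the 40 genes. These were Hyal5 and Spam1, all 3 lysozyme-like genes (Lyzl4, Lyzl6 and Spaca3), all 4 membrane genes (Spaca1, Spaca4, Eqtn and Tmem190), Acrv1, Spaca7, Zp3r, Zpbp and Izumo1. Dkkl1, Pcsk4, Izumo4, Ccdc136 and Dpy19l2 were the 5 with the opposite order, knockout replicates 1 and 2 both below 3 and 4. In the wild-type libraries, replicates 1 and 2 were the highest in 14 genes as well. Neither order was counted over all tested genes. The sum of the spermatid markers in the libraries labelled knockout had the order of those 5 genes. It was 21103 and 23944 CPM in replicates 1 and 2 and 25868 and 27479 CPM in replicates 3 and 4. Taken singly, Prm2, Tnp2, Gapdhs, Spem1 and Tssk6 had replicates 1 and 2 below 3 and 4. Prm1, Tnp1, Hmgb4, Akap4 and Odf1 did not show this order. The part of the spermatid markers in these values was not tested. Median deviations of the 40 genes from the wild-type mean, on the log2 scale, were 0.03 and 0.06 in knockout replicates 1 and 2, -0.04 in replicate 3 and 0.00061 in replicate 4. Those of the wild-type libraries ran from -0.04 to 0.03, so that knockout replicate 2 lay above that range, and replicate 3 (-0.0398) just below its lowest value (-0.0380).

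The 6 acrosome biogenesis genes held no call, by limma, edgeR or DESeq2, and no unadjusted p under 0.05. Dpy19l2, the nuclear membrane protein that ties the acrosome to the nucleus, stood at 200.2 ± 15.9 and 191 ± 10.7 CPM. Gopc and Pick1, PDZ proteins of Golgi vesicle traffic, stood at 31.6 ± 0.653 and 31.5 ± 1.94 CPM and at 37.5 ± 1.65 and 38.4 ± 1.31 CPM. Agfg1, which acts in the docking and fusion of proacrosomal vesicles, stood at 204 ± 6.17 and 205 ± 3.36 CPM. Smap2, a regulator of Arf proteins in vesicle budding, stood at 43.7, 38.2, 39.99 and 36.7 CPM in the wild-type libraries and at 43.2, 40.8, 42.4 and 44.3 CPM in those labelled knockout (log2 fold change 0.11, SE 0.06, limma adjusted p = 0.27). Ccdc136 stood at 1904, 1881, 1899.5 and 1789 CPM and at 1898, 1858, 1989 and 2063 CPM (log2 fold change 0.06, SE 0.05, limma adjusted p = 0.44). Replicate 4 labelled knockout lay above the wild-type range of Smap2, and replicates 3 and 4 above that of Ccdc136.

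Of 52 further acrosome and fertilization genes in 4 lists, 50 were tested, of which 3 were higher and 1 lower (8.0%, against the 16.9% of all tested genes). Beside Actrt1, Atg7, an autophagy enzyme that acts in acrosome biogenesis, rose 1.25-fold from 61.6 ± 2.10 to 76.9 ± 3.79 CPM, the 1 call of 16 further biogenesis genes. Pmis2, a sperm protein needed for passage into the oviduct, rose 1.22-fold from 53.5 ± 1.80 to 65.2 ± 3.23 CPM, the 1 call of 16 further fertilization factors and chaperones. Unc13b, a priming factor of vesicle release, fell 1.22-fold from 63.1 ± 1.37 to 51.7 ± 3.76 CPM, the 1 call of 9 tested genes of acrosomal exocytosis. Their limma adjusted p were 0.00088, 0.0022 and 0.0034, and for each of the 3 the groups did not overlap. Nor did those of Spag4, a theca gene of these lists that was not called (limma adjusted p = 0.11). The groups of Actrt1 stood apart too, and those of every other tested gene of the 4 lists overlapped. Over all tested genes, 20.9% had groups that did not overlap, a larger share.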

How the data were processed

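Total RNA was extracted with TRIzol, treated with DNase and made into TruSeq libraries, per the labels' protocols. Trimmomatic, Subread, featureCounts and the build GRCm39 (mm39) are named, per the submitters' processing notes. The sources used here give no version, annotation, strand setting or treatment of multi-mapping reads. The authors deposited a scaled signal per gene, named CPM, with columns control and kpn 1 to 4, matched by number to the wild-type and knockout titles. Column sums ran from 990244 to 1025489, so the scaling was not by column totals. All values (100%) were whole multiples, within 0.01, of each column's smallest value, which gave back whole reads. The table is not plain CPM as the plan had assumed, and the planned test on the log scale was kept.

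The main test was limma 3.58.1 (R 4.3.3, eBayes with variance trend) on log2(CPM + 0.5), a scale that understates changes of low genes, after a filter that kept genes averaging 0.5 CPM or more. Benjamini-Hochberg adjustment ran over all tested genes, with a threshold of 0.05. edgeR 4.0.16 and DESeq2 1.42.0 on the recovered reads were among 19 alternatives. The code was checked on simulated counts. The members and lists were chosen with earlier results of these data known. Of the 40 genes, single tests are given for those called and for up to 2 uncalled genes of smallest p per role, and means or ranges for the others named. Symbols were found for 24890 identifiers. Gene positions and exon lengths (all annotated exons merged) are from GENCODE M21 on GRCm38, which is not the authors' build, and nothing was converted. Promoters are from RefSeq (GRCm38.p6). Replicates differed beyond sampling noise (chi-square per degree of freedom 4.73 to 12.1).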

Additional observations from a re-analysis of the deposited data

Results flagged for a closer look

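Among 80 sets of 4 values (40 genes in 2 groups), 4 held a library far from the other 3 by Dixon's 95% criterion, which chance gives in about 1 of 20 sets. All 4 were wild-type libraries. Acr stood at 180 CPM in wild-type replicate 1 against 171 to 172 CPM in the others. Zpbp stood at 203 CPM in wild-type replicate 4 against 222 CPM in the other 3. Eqtn stood at 91.5 CPM in wild-type replicate 2 against 78.6 to 80.5 CPM. Actl7a stood at 344 CPM in wild-type replicate 3 against 383 to 386 CPM. None of these genes was called.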

How the results depend on the processing

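Over 19 alternatives the number of all genes called ran from 2788 to 4073, and that of the 52 further acrosome and fertilization genes from 4 to 6, both within 1.5 times the main counts. The number of the 40 genes called was 1 without the variance trend and 1 to 2 when 1 library was left out, Plcz1 being the call lost. Groups did not overlap for 3 of the 40 genes with quantile normalization and for 1 to 4 when 1 library was left out. The share over all tested genes was not counted in these settings. Of the 16 of the 40 genes given with single tests, 13 kept direction and side of the threshold in every alternative, Cylc1 among them with a log2 fold change of 0.38 to 0.53. So did Kpna2 and the 4 called genes of the further lists. Spam1, never called, turned to -0.025 with library weights, and ran from -0.046 to 0.097 when 1 library was left out, below 0 where that was wild-type replicate 4 or knockout replicate 2 (-0.042). The cause was not tested. With the replicate number as a block, 3446 genes and 2 of the 40 were called. Same-numbered libraries did not deviate together (correlations -0.02, 0.04, -0.02 and -0.03), so the numbers were not taken as pairs. Median ratio scaling and quantile normalization moved the median log2 fold change by 0.0050 and 0.0063.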
